A study of Danio rerio with 6 samples.

Results

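The mitochondrial genome carries its own small set of genes, and the 13 rows of the count table whose symbol begins with mt- are the subject here. They were chosen by name alone, from 32520 rows in all, and no measured value entered the choice. All 13 encode proteins: 7 subunits of respiratory complex I, cytochrome b of complex III, 3 subunits of complex IV and 2 subunits of the ATP synthase, complex V. Rows paired with a symbol of a mitochondrial ribosomal RNA or transfer RNA numbered 0 of 29201 named rows, so these 2 classes were not analysed here.

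In vertebrates the mitochondrial DNA is transcribed from both strands as long RNAs that span many genes. Transfer RNAs lie between the coding stretches, and cutting them out frees the messenger RNAs, most of which receive a short poly-A tail inside the organelle. Their products form the core of the chain that moves electrons to oxygen, pumps protons and makes ATP, while the many other subunits of the same complexes are encoded in the nucleus. Liver is rich in mitochondria, which there also serve fatty acid oxidation and glucose production.

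The livers came from zebrafish of the wild-type AB strain, a standard laboratory line. Fresh sperm was used for the control group and cryopreserved sperm for the other, with 3 libraries in each (fresh replicates 1 to 3 and cryo replicates 1 to 3), and the series title places the fish among the offspring. The submitters call the replicates biological. The labels used here give neither the number of fish per library nor their sex or age, so a p-value speaks to differences among these 6 libraries. All libraries carry one batch label, and the titles use F for fresh and C for cryopreserved. Should those letters and the treatment labels have been crossed, each direction below would turn round.

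Libraries held 8277183 to 17606733 counts, with the shallowest, cryo replicates 2 and 3, both in one group. The liver label was matched by its markers: all 12 hepatocyte genes listed had counts. They summed to 199100, 178900 and 196700 CPM in fresh and 279100, 173900 and 195300 CPM in cryo replicates 1, 2 and 3. CPM is a count scaled to its library's total after TMM normalisation. Vitellogenin RNA, the egg yolk precursor made by liver under oestrogen, took up 17.4% and 12.4% of counts in cryo replicates 2 and 3 and at most 6.04e-04% in the other 4 libraries. Cryo replicate 1 thus stood apart from its own group. Changes of the mitochondrial genes and medians of the nuclear lists are given with and without the other cryo libraries. High vitellogenin was seen only in the cryo group, so what goes with it, sex included, cannot be told apart from sperm treatment. Among libraries low in vitellogenin the comparison rests on cryo replicate 1 alone. In bulk liver, fewer hepatocytes or fewer mitochondria and less RNA per mitochondrion cannot be told apart.

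Mitochondrial messenger RNA made up a smaller share of the liver libraries from the cryopreserved sperm group. The 13 genes together took 6.42%, 6.67% and 6.64% of all counts in fresh replicates 1, 2 and 3. They took 4.15%, 2.75% and 1.97% in cryo replicates 1, 2 and 3. The fresh libraries lay close together, the cryo libraries were spread widely, and the groups did not overlap. Counting error was far smaller than these gaps, with Wilson 95% intervals reaching no more than 0.0119 percentage points to either side, and these cover counting error only. Leaving vitellogenin out of the total raised the shares of cryo replicates 2 and 3 to 3.33% and 2.25% and left cryo replicate 1 at 4.15%.

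Every mitochondrial gene was lower in every cryo library than in any fresh library. This held in 13 of 13 genes, where 13.4% of the 12674 genes tested showed such a separation downward. The 13 genes moved together across the cryo libraries, so they do not count as separate observations of the groups. Log2 changes ran from -1.62 for mt-atp8 to -0.53 for MT-CO3, with a median of -1.10 beside a median of 0.00 over all genes tested. Of the 13, 1 passed the edgeR quasi-likelihood test (adjusted p under 0.05, Benjamini-Hochberg) and it was lower. Of all genes tested 1.98% passed, 0.963% lower and 1.02% higher. A further 5 lay at adjusted p-values from 0.0635 to 0.0892, and 11 of 13 had an unadjusted p under 0.05, as 18.5% of all genes tested did. By DESeq2, tried as an alternative, 10 of 13 passed, all lower, beside 7.66% of genes in either direction and 3.47% lower, with MT-CO2, MT-CO3 and MT-CYB missing the threshold (adjusted p = 0.25, 0.32 and 0.103).

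**Figure D1:**
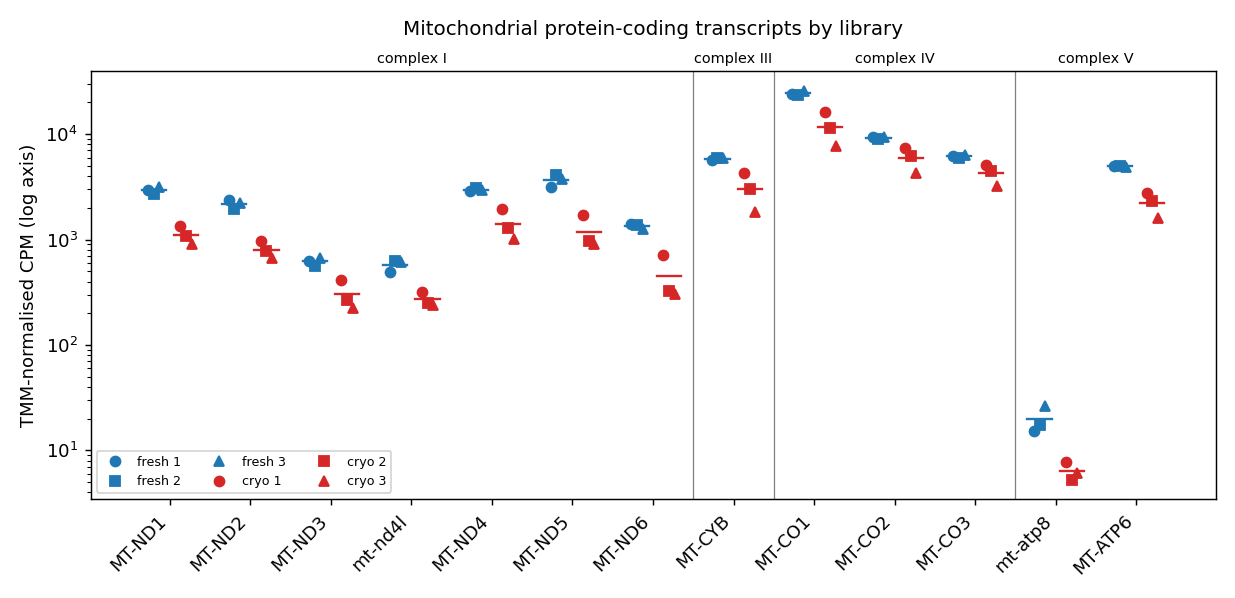
Normalised CPM of each mitochondrial transcript on a log axis, grouped by respiratory complex, with 1 point per library (blue fresh, red cryo, marker shape by replicate) and a short line at each group mean. In all 13 genes the 3 red points sit below the 3 blue points, and cryo replicate 1 is the highest of the red points in each. Heights of different genes depend on gene length and are not compared.

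Complex I, the NADH dehydrogenase that feeds electrons into the chain, supplies 7 of the genes, none of which passed the edgeR test. MT-ND1 (ENSDARG00000063895), a core membrane subunit, stood at 2946, 2721 and 3124 CPM in fresh replicates 1, 2 and 3 and at 1358, 1073 and 898 CPM in cryo replicates 1, 2 and 3. The fresh mean was 2.64 times the cryo mean without overlap, and the log2 change was -1.40 ± 0.32 (SE, edgeR adjusted p = 0.0728). MT-ND2, a proton-pumping subunit, read 2380, 1942 and 2240 CPM in fresh and 976, 774 and 663 CPM in cryo libraries. The groups were again apart, with a log2 change of -1.44 ± 0.31 (edgeR adjusted p = 0.0635).

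MT-ND5 and MT-ND6 lie next to each other on opposite strands and had the largest differences in complex I. MT-ND5, another proton-pumping subunit, had 3126, 4058 and 3718 CPM in fresh and 1692, 976 and 901 CPM in cryo replicates 1, 2 and 3. Cryo replicate 1 lay above the other cryo libraries and below every fresh library, and the log2 change was -1.61 ± 0.38 (edgeR adjusted p = 0.0751). MT-ND6, whose gene alone among the 13 is read from the other strand, had 1391, 1386 and 1271 CPM in fresh and 715, 326 and 304 CPM in cryo libraries. Its cryo values were the most scattered of the set, with a coefficient of variation of 51.5% beside 5.04% in fresh, and the log2 change was -1.59 ± 0.40 (edgeR adjusted p = 0.0892).

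The count of MT-ND6 was 44.5%, 34.2% and 34.2% of that of MT-ND5 in the fresh libraries. It was 42.2%, 33.4% and 33.8% in the cryo libraries. The ratio thus spanned much the same range in both groups and was highest in replicate 1 of each. Whether counting used strand is not stated, and reads of MT-ND6 cannot be told apart from RNA of the opposite strand across the same stretch. The libraries were made from RNA captured by its poly-A tail, and in humans the ND6 messenger lacks a long tail. Whether tail length plays a part in any of these values was not tested.

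The other 3 subunits of complex I had smaller estimates. MT-ND4, a proton pump, had 2909, 3083 and 2961 CPM in fresh and 1931, 1291 and 1014 CPM in cryo libraries, a log2 change of -1.08 ± 0.35 (edgeR adjusted p = 0.159). The small subunit gene mt-nd4l, whose reading frame overlaps that of MT-ND4 on a shared messenger RNA, had 496, 632 and 611 CPM in fresh and 318, 252 and 241 CPM in cryo libraries, or -1.10 ± 0.28 (edgeR adjusted p = 0.0873). MT-ND3, also a small membrane subunit, had 630, 565 and 664 CPM in fresh and 410, 269 and 225 CPM in cryo libraries, or -1.04 ± 0.32 (edgeR adjusted p = 0.137). In all 3 genes cryo replicate 1 lay closest to the fresh group.

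Cytochrome b, the product of MT-CYB, is the one complex III subunit made in the organelle and carries the hemes that pass electrons from ubiquinol. MT-CYB stood at 5717, 5929 and 5935 CPM in fresh libraries and at 4259, 3009 and 1813 CPM in cryo replicates 1, 2 and 3. The fresh values differed by little, and the cryo values were scattered, with coefficients of variation of 2.11% and 40.4%. The log2 change was -0.95 ± 0.41, with a 95% interval from -1.90 to -0.01 before any adjustment (edgeR adjusted p = 0.264).

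Complex IV, cytochrome c oxidase, takes its 3 catalytic-core subunits from the mitochondrial genome, and these genes included the smallest differences of the set. MT-CO1 holds the heme and copper site where oxygen is reduced. It had 24172, 23746 and 25852 CPM in fresh and 16357, 11337 and 7652 CPM in cryo libraries, or -1.06 ± 0.45 on the log2 scale (edgeR adjusted p = 0.259). MT-CO2, which receives electrons from cytochrome c, had 9322, 8911 and 9338 CPM in fresh and 7428, 6150 and 4237 CPM in cryo libraries. Cryo replicate 1 lay close under the fresh group here, and the log2 change of -0.63 ± 0.38 did not pass (edgeR adjusted p = 0.423), with a 95% interval from -1.51 to 0.25.

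MT-CO3, a core subunit without metal centres, had 6247, 5955 and 6398 CPM in fresh and 5103, 4498 and 3242 CPM in cryo libraries. The lowest fresh value was 1.17 times the highest cryo value, the narrowest gap among the 13 genes. Its log2 change was -0.53 ± 0.35 (edgeR adjusted p = 0.469), and the interval from -1.35 to 0.28 holds both 0 and the median of the set.

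Complex V makes ATP, and mt-atp8 and MT-ATP6 encode a stalk subunit and the subunit of its proton channel from overlapping frames of one messenger RNA. MT-ATP6 had 5021, 4964 and 4907 CPM in fresh, the tightest fresh values of the set (coefficient of variation 1.15%), and 2795, 2331 and 1585 CPM in cryo libraries. Its log2 change was -1.15 ± 0.36 (edgeR adjusted p = 0.143).

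The gene mt-atp8 was the one called, and it fell by 1.62 ± 0.31 on the log2 scale (edgeR adjusted p = 0.0465). It had 15.2, 17.5 and 26.6 CPM in fresh and 7.76, 5.25 and 6.11 CPM in cryo libraries. These rest on 258, 322 and 445 counts in fresh and 120, 37 and 55 counts in cryo replicates 1, 2 and 3, the lowest of any member. Its count was between 0.225% and 0.543% of that of MT-ATP6 in the 6 libraries. How fragments that touch both frames were assigned is not stated, so its level is uncertain, as is that of mt-nd4l.

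The call of mt-atp8 was marginal. It was kept in 6 of 19 alternatives and lost in 13, with adjusted p-values from 0.00126 by DESeq2 to 0.225 when cryo replicates 2 and 3 were left out. The size of the change was steadier than the call, from -1.79 to -1.31 over those alternatives.

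**Figure D2:**
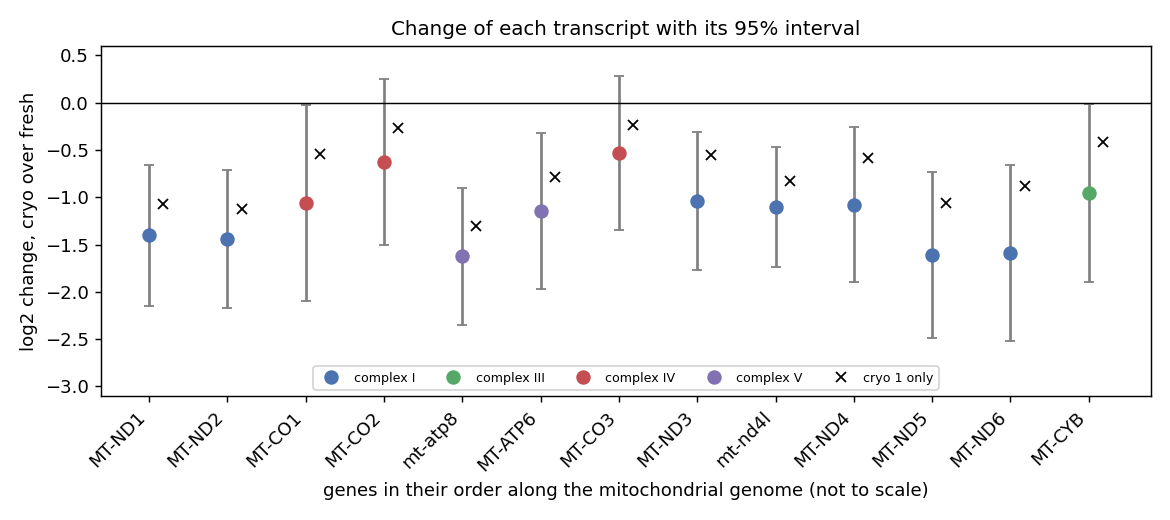
Log2 change of each transcript, cryo over fresh, with its unadjusted 95% interval, in the order of the genes along the mitochondrial genome; crosses give the change when cryo replicates 2 and 3 are left out. All points lie below 0, from -1.62 for mt-atp8 to -0.53 for MT-CO3, and all crosses lie above their points. MT-ND1 and MT-ND2 are close in size, as are MT-ND5 and MT-ND6.

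The libraries within the cryopreserved sperm group differed from each other in the same way for nearly every gene. Cryo replicate 1 was the highest of the 3 for 13 of 13 genes, and cryo replicate 3 the lowest for 12 of 13, the exception being mt-atp8. Coefficients of variation had a median of 27.3% in the cryo group (15.4% to 51.5%) and of 5.04% in the fresh group (1.15% to 30.6%), with the larger value in cryo libraries for 12 of 13 genes. The model across all genes put the biological coefficient of variation of the 13 genes between 0.312 and 0.389.

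Because vitellogenin marked cryo replicates 2 and 3, the comparison was repeated without them, and without cryo replicate 1. With cryo replicate 1 alone against the fresh libraries, and assumed to vary like them, all 13 changes were still negative, at a median of -0.79 and from -1.31 for mt-atp8 to -0.24 for MT-CO3. None of the 13 passed in that fit, beside 0.772% of all genes, while 9 had an unadjusted p under 0.05 (17.3% of all genes did). Without cryo replicate 1 the median was -1.37 and 11 of 13 passed, all but MT-CO2 and MT-CO3, beside 6.60% of all genes. The sizes thus differed between the cryo libraries. With no overlap between the groups for any of the 13 genes, the sign could hardly turn and was not tested by these fits.

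Pancreatic and macrophage RNA also moved with the groups. Of 17 acinar pancreas markers matched, 15 were tested and 10 rose (edgeR adjusted p under 0.05), beside 1.02% of all genes tested, and the list summed to 390 to 620 CPM in fresh and 1257 to 3701 CPM in cryo libraries, with ctrb.1 and ctrb.2 at 0 in all. Of 20 macrophage rows 14 were tested and 4 rose by the same test and beside the same share, with sums of 278 to 1554 CPM in fresh and 1723 to 2347 CPM in cryo libraries, and 1 of the MPEG1 copies (ENSDARG00000078569) at 0. The part of pancreatic and of macrophage RNA in the mitochondrial result was not tested. With vitellogenin and pancreas genes both taken out before scaling (a setting chosen after seeing the data), all 13 genes were negative with a median of -1.07. The median was also -1.07 with vitellogenin alone taken out. Taking out marker rows changes only the scaling and leaves any other RNA of pancreatic cells in the counts. Islet markers summed to 172, 0.142 and 17.4 CPM in cryo replicates 1, 2 and 3 and to at most 9.20 CPM in fresh libraries. Biliary and erythrocyte markers were also highest in cryo replicate 1, at 726.5 and 216 CPM, beside at most 442 and 102 CPM in fresh libraries. Each of these lists overlapped between the groups. Markers of skeletal muscle and ovary summed to no more than 1.16 and 1.11 CPM in any library.

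The make-up of the mitochondrial messenger pool can be read without any scaling between libraries, as the share of each gene in the summed 13. Complex IV genes held 61.7%, 60.4% and 62.0% of that sum in fresh and 66.6%, 68.1% and 66.4% in cryo replicates 1, 2 and 3. Complex I genes held 21.6%, 22.5% and 21.8% in fresh and 17.1%, 15.4% and 18.6% in cryo libraries. Neither set of values overlapped between groups, and cryo replicate 1 lay between the other cryo libraries for both.

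Among single genes, MT-CO3 and MT-CO2 held larger shares in the cryo group. The share of MT-CO3 was 9.70%, 9.32% and 9.54% in fresh and 11.8%, 13.9% and 14.2% in cryo libraries. That of MT-CO2 was 14.5%, 13.9% and 13.9% in fresh and 17.1%, 19.0% and 18.6% in cryo libraries. For both genes all 3 cryo libraries lay above all 3 fresh ones.

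Smaller shares without overlap were seen for MT-ND1, MT-ND2, MT-ND5, MT-ND6 and MT-ATP6. All shares of a library are parts of one sum, so larger shares of some genes require smaller shares of others. The share of MT-ND5 was 4.86%, 6.35% and 5.55% in fresh and 3.90%, 3.02% and 3.96% in cryo libraries, and that of MT-ND6 was 2.16%, 2.17% and 1.90% against 1.65%, 1.01% and 1.34%. Mean log2 shares in cryo minus fresh were -0.62 for MT-ND5, -0.67 for MT-ND6, -0.38 for MT-ND1, -0.42 for MT-ND2 and -0.15 for MT-ATP6.

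The remaining 6 genes overlapped. MT-CO1 held 37.6%, 37.2% and 38.6% in fresh and 37.7%, 35.1% and 33.6% in cryo libraries, and MT-CYB held 8.88%, 9.28% and 8.85% in fresh and 9.83%, 9.32% and 7.96% in cryo libraries. The 3 complex IV genes thus did not keep one ratio: the count of MT-CO3 was 25.8%, 25.1% and 24.8% of that of MT-CO1 in fresh and 31.2%, 39.7% and 42.4% in cryo replicates 1, 2 and 3.

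An exact two-sided permutation test of the 3 against 3 log2 shares gave p = 0.1 for each of the 7 genes without overlap, the smallest that this design allows, and an adjusted p of 0.186 over the 13 tests. A fit of edgeR across all genes used the mitochondrial sum as library size (chosen after seeing the data). It called 27.9% of all genes, with 50.8% at an unadjusted p under 0.05. Such scaling moved the median log2 change of all genes to 1.07, so these percentages are no background for the 13. Of the 13 it called 0, with 0 at an unadjusted p under 0.05 and a lowest adjusted p of 0.189. The fit draws its spread partly from all genes under that scaling, so it cannot decide on shifts among the 13. The shifts inside the pool are therefore given as values that separated the libraries and not as tested differences.

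**Figure D3:**
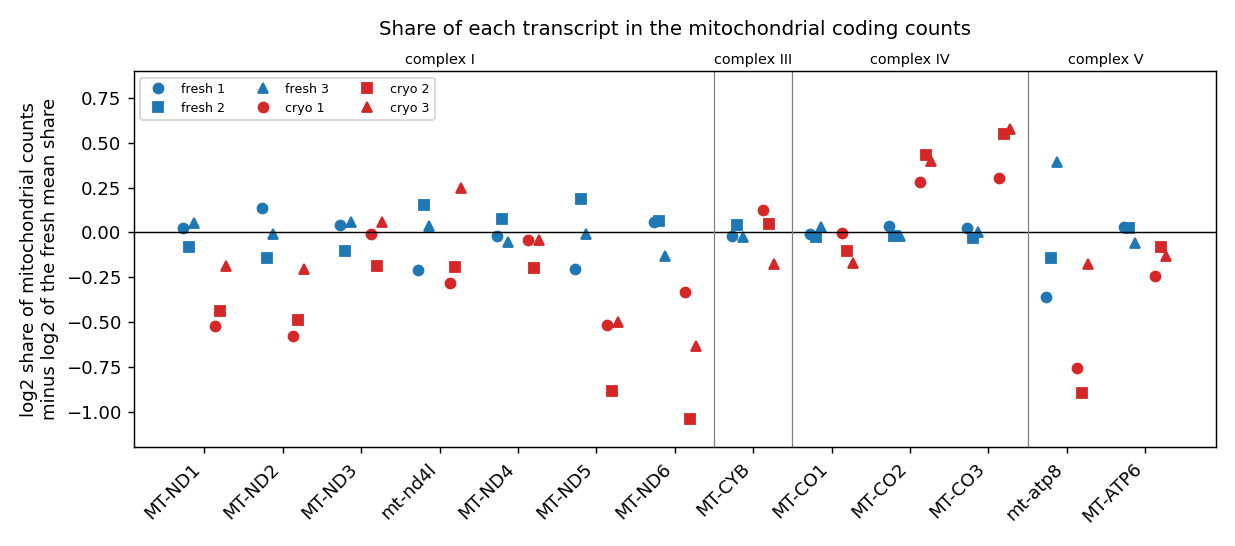
Log2 share of each transcript in the 13-gene sum of its library, minus the log2 of the fresh mean share, by complex and with 1 point per library. MT-CO2 and MT-CO3 have all red points above all blue ones, MT-ND1, MT-ND2, MT-ND5, MT-ND6 and MT-ATP6 have all red points below, and the other 6 genes overlap.

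The nuclear partners of these transcripts were looked at through lists of genes, chosen with earlier results of these data known. Of 82 tested nuclear subunit genes of complexes I to V, 0 passed the edgeR threshold and 22 had an unadjusted p under 0.05 (18.5% of all genes did). By DESeq2 7 of 87 passed, beside 7.66% of all genes. In this and the lists below, DESeq2 list sizes count every member with a fitted change. The DESeq2 share of all genes is over the 15170 with an adjusted p. The median log2 change of the 82 was -0.39, with 63 of 82 negative (49.9% of all genes tested were). Medians by complex were -0.39, -0.55, -0.67, -0.26 and -0.28 for complexes I, II, III, IV and V. The median over the 82 was -0.24 without fresh replicate 1 and -0.22 without fresh replicate 3, and with 1 library left out the 5 complexes ranged from -0.50 to -0.22 (I), -0.53 to -0.42 (II), -0.71 to -0.41 (III), -0.29 to -0.13 (IV) and -0.33 to -0.16 (V). Without cryo replicates 2 and 3 the median over the nuclear subunit genes was -0.35. By complex it was then -0.34, -0.44, -0.86, -0.23 and -0.25 for I, II, III, IV and V. All cryo values lay below all fresh values for 26 of the 82 genes, or 31.7%, beside 13.4% of all genes tested.

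Genes are named below by single rows. The lists also hold another SDHD row, other COX5B rows, ndufab1b beside NDUFAB1, atp5meb beside atp5mea, and ATP5MC3 and atp5mc3b beside atp5mc1. Values of those further rows are not given here. In each complex the pair of nuclear gene rows with the smallest p is named, none of which passed. In complex I these were NDUFB9, an accessory subunit, at -1.62 ± 0.45 (edgeR adjusted p = 0.112), and NDUFAB1 (ENSDARG00000058463), a mitochondrial acyl carrier protein, at 0.87 ± 0.24 (0.108). This NDUFAB1 row lay above fresh in all 3 cryo libraries. In complex II, which has no subunit from the mitochondrial genome, SDHD (ENSDARG00000030139), a membrane anchor, stood at -0.53 ± 0.22 (edgeR adjusted p = 0.249). SDHA, the subunit that oxidises succinate, stood at -0.57 ± 0.26 (edgeR adjusted p = 0.294), with overlap between groups. In complex III they were UQCRFS1, the Rieske iron-sulfur protein, at -1.05 ± 0.27 (edgeR adjusted p = 0.0927), and UQCR10, a small subunit, at -0.98 ± 0.28 (0.116).

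In complex IV, COX5B (ENSDARG00000068738), a structural subunit, had 163, 131 and 171 CPM in fresh and 62.6, 72.5 and 66.3 CPM in cryo libraries, or -1.21 ± 0.24 (edgeR adjusted p = 0.0518). The opposite direction was seen for cox7a1, a subunit form best known from mammalian muscle, with 6.29, 9.36 and 8.37 CPM in fresh and 32.4, 19.4 and 18.8 CPM in cryo libraries, or 1.56 ± 0.31 (edgeR adjusted p = 0.0534). Neither gene overlapped between groups. In complex V, atp5mea, for subunit e, had -1.45 ± 0.32 (edgeR adjusted p = 0.0671) and atp5mc1, for the rotating c subunit, -1.10 ± 0.27 (0.0809).

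Counts of the 13 mitochondrial genes were 7.76, 9.71 and 8.11 times the summed counts of the nuclear subunit genes in fresh replicates 1, 2 and 3, and 7.45, 4.83 and 3.87 times in cryo replicates 1, 2 and 3. Cryo replicate 1 was just under fresh replicate 1, and the other cryo libraries were well below. The mitochondrial complex I genes summed to 51.8%, 34.7% and 29.7% of their fresh mean CPM in cryo replicates 1, 2 and 3, while the nuclear complex I genes summed to 85.9%, 82.5% and 74.8% of theirs. For the nuclear genes of complexes I, IV and V fresh replicate 2 was as low as some cryo libraries, at 80.0%, 84.7% and 88.5% of the fresh mean. For complex III the nuclear sum was lowest in cryo replicate 1, at 58.6%, where the mitochondrial partner was highest of the cryo group, at 72.7%. The difference between the mitochondrial and nuclear sums was not tested.

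**Figure D4:**
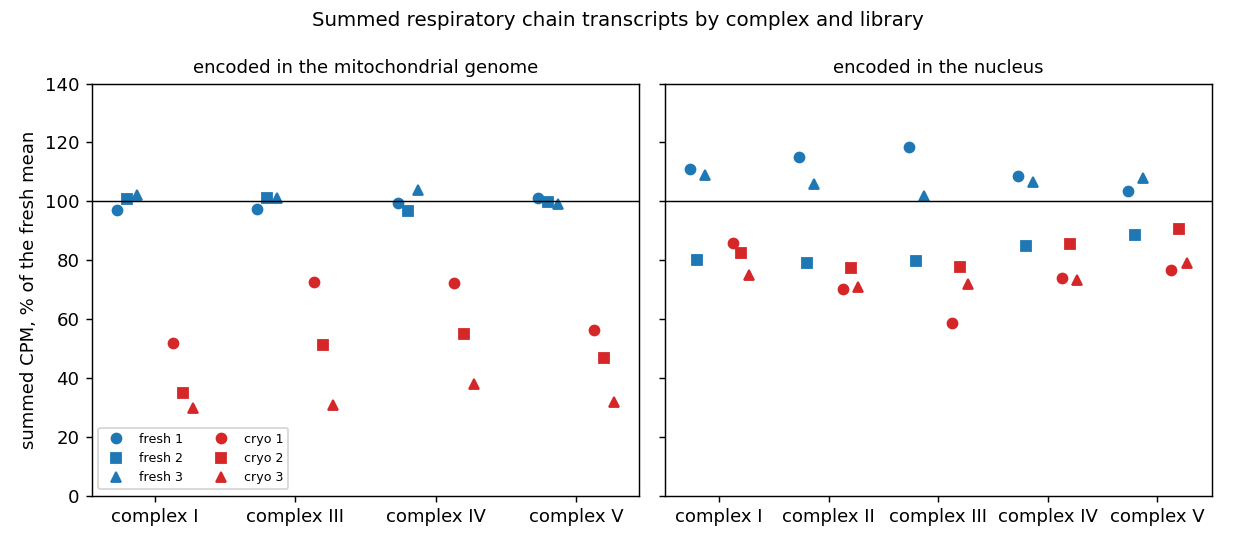
Summed CPM of respiratory chain genes by complex and library, as a percentage of the fresh mean, for genes of the mitochondrial genome (left) and of the nucleus (right). Mitochondrial sums of cryo libraries lie between 29.7% and 72.7% and apart from the fresh group, while the nuclear sums lie between 58.6% and 90.6% and overlap the fresh group for complexes I, IV and V.

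Of 6 tested genes from a list for mitochondrial transcription, with the TFB and MTERF families, 0 passed by edgeR (1.98% of all genes did). An unadjusted p under 0.05 was seen for 1 of them (18.5% of all genes). By DESeq2 0 of 7 passed (7.66% of all genes did). The median log2 change of the 6 was -0.15 and came to between -0.20 and -0.03 with 1 library left out. It was -0.35 without cryo replicates 2 and 3. The smallest p belonged to mterf3, which in mice holds mitochondrial transcription down. It had 1.18, 0.980 and 1.44 CPM in fresh and 3.04, 1.99 and 1.89 CPM in cryo libraries, without overlap but at a low level (log2 0.96 ± 0.41, edgeR adjusted p = 0.264). The factor tfb2m, which opens the promoter for the mitochondrial polymerase, had 53.1, 37.7 and 48.6 CPM in fresh and 23.9, 43.4 and 25.8 CPM in cryo libraries, so the groups overlapped (edgeR adjusted p = 0.348).

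Of 24 RNA processing genes 0 passed by edgeR and 1 by DESeq2 (1.98% and 7.66% of all genes did). An unadjusted p under 0.05 was seen for 2 of them (18.5% of all genes). Their median of 0.02 held no direction, with values from -0.33 (without cryo replicate 2) to 0.10 (without cryo replicate 3). It was -0.31 without cryo replicates 2 and 3 together. HSD17B10 encodes a dehydrogenase that in humans is also a subunit of the enzyme trimming the 5′ end of mitochondrial transfer RNAs. It had 38.9, 29.7 and 45.9 CPM in fresh and 13.3, 6.53 and 16.7 CPM in cryo libraries, without overlap (log2 -1.64 ± 0.37, edgeR adjusted p = 0.0689). MRM1, which in humans methylates mitochondrial ribosomal RNA, had 1.42, 5.11 and 1.11 CPM in cryo replicates 1, 2 and 3 and overlapped with fresh. Its log2 estimate of 1.81 ± 0.72 (edgeR adjusted p = 0.231) was 0.90 without cryo replicate 2. Of 14 genes that modify mitochondrial transfer RNAs 0 passed (0 at an unadjusted p under 0.05, 0 of 17 by DESeq2), beside the same shares of all genes. Their median of 0.32 turned to -0.20 without cryo replicate 2, and was 0.55 without cryo replicate 1 and 0.67 without cryo replicate 3. Leaving out cryo replicates 2 and 3 together gave -0.34. The smallest p-values there were those of TRMU, a thiolating enzyme, at -0.73 ± 0.35 (edgeR adjusted p = 0.317), and OSGEPL1, which modifies an adenosine beside the anticodon, at 0.70 ± 0.37 (0.366).

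Of 19 tested genes from a list for charging these transfer RNAs, vars2, the synthetase for valine, was the one that passed. It did so by edgeR and by DESeq2 (1 of 19 each, beside 1.98% and 7.66% of all genes). It rose from 4.17, 5.23 and 3.95 CPM in fresh to 14.4, 18.4 and 26.4 CPM in cryo libraries, by 2.15 ± 0.31 on the log2 scale (edgeR adjusted p = 0.0217). The groups were far apart, and the order of the cryo libraries was the reverse of that in the mitochondrial transcripts. The call was lost when fresh replicate 1, 2 or 3 was left out (edgeR adjusted p = 0.0819, 0.0846 and 0.11) or both vitellogenin-rich cryo libraries were (0.0879). Over the 19 genes the median log2 change was 0.35, with 7 negative (49.9% of all genes) and 2 at an unadjusted p under 0.05 (18.5%). That median ranged from 0.20 to 0.41 with 1 library left out and was -0.06 without cryo replicates 2 and 3. Of 17 genes for copying mitochondrial DNA and supplying its nucleotides 0 passed by edgeR. An unadjusted p under 0.05 was seen for 4 (18.5% of all genes), and 1 of 18 passed by DESeq2 (7.66% of all genes). The median of these 17 genes was -0.43, or -0.39 without cryo replicates 2 and 3. Their median was -0.28 without fresh replicate 1, -0.17 without fresh replicate 2 and -0.23 without cryo replicate 3. They were led by slc25a36b, whose human counterpart carries pyrimidine nucleotides, with 43.2, 44.1 and 37.7 CPM in fresh and 21.9, 16.0 and 24.5 CPM in cryo libraries (edgeR adjusted p = 0.0823), and ABAT, a transaminase of the neurotransmitter GABA, at 1.27 ± 0.44 (0.178), or 0.83 without cryo replicate 2.

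Of 9 tested regulators of mitochondrial gene programmes 1 passed by edgeR and 1 by DESeq2, beside 1.98% and 7.66% of all genes. An unadjusted p under 0.05 was seen for 2 of the 9 (18.5% of all genes). The list held no common direction, with a median log2 change of -0.09, 5 of 9 negative and values from -2.07 to 2.16. With 1 library left out its median ranged from -0.12 to 0.18, and without cryo replicates 2 and 3 it was 0.06. The gene that passed was PPARGC1A, a coactivator that drives mitochondrial biogenesis in mammals. It fell from 8.70, 13.9 and 9.09 CPM in fresh to 2.85, 2.41 and 2.22 CPM in cryo libraries, by 2.07 ± 0.32 on the log2 scale (edgeR adjusted p = 0.0251). The cryo values lay close together, cryo replicate 1 included. PPARGC1A also passed by DESeq2 (adjusted p = 5.04e-05) and limma-voom (adjusted p = 0.037). It passed with other factors or filters (edgeR adjusted p from 0.00751 to 0.0298) and without cryo replicate 1 (edgeR adjusted p = 0.0226). The call was lost when fresh replicate 1, 2 or 3 was left out (edgeR adjusted p = 0.0659, 0.0979 and 0.0964), when cryo replicate 2 or 3 was (0.061 and 0.0776) and when both were (0.147).

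Of 22 general mitochondrial genes, such as import receptors, channels and chaperones, 0 passed by edgeR, 6 had an unadjusted p under 0.05 (18.5% of all genes did) and 3 of 25 passed by DESeq2 (7.66% of all genes did). Their median of -0.26 was -0.15 without fresh replicate 1, -0.13 without fresh replicate 3 and -0.16 without cryo replicate 1. It was -0.42 without cryo replicates 2 and 3. HSPA9, the mitochondrial chaperone that pulls proteins into the matrix, had 154, 115 and 92.5 CPM in fresh and 21.1, 56.6 and 35.7 CPM in cryo libraries (log2 -1.68 ± 0.40, edgeR adjusted p = 0.0767). Here cryo replicate 1 was the lowest library, unlike its place among the mitochondrial transcripts. TOMM70, an import receptor of the outer membrane, had -1.17 ± 0.29 (edgeR adjusted p = 0.0873), again without overlap.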

How the data were processed

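Poly-A RNA was captured from Trizol-extracted liver RNA and cDNA was primed with random hexamers, per the labels' protocols. The deposited values are raw read counts per Ensembl gene, made by the authors from HISAT2 alignments per the file headers, on GRCz11 (danRer11) per the submitters' processing notes. Tool versions, the counting program, its strand setting and the gene annotation were not stated there. The name table matched 29201 of 32520 identifiers. Gene order came from a RefSeq table of another assembly, GRCz12tu, whose lengths were not used. A total of 303 of 327 list symbols matched.

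Counts were tested with edgeR 4.0.16 in R 4.3.3 (filterByExpr, TMM, quasi-likelihood, two-sided, Benjamini-Hochberg over 12674 genes, threshold 0.05), with all 6 libraries. The standard error is the log2 change over the square root of F, and 95% intervals use the fit's degrees of freedom. Shares were tested with scipy 1.17.1. Lists were chosen with earlier results of these data known, while members were taken by symbol alone. Named genes are all members and, of each nuclear list, those past the edgeR threshold or otherwise the 2 with the smallest p. The edgeR procedure was run on simulated counts that had 1 spread for all genes and both groups. The groups here differed in spread, so that run checked the code and not the calls. Alternatives were DESeq2 1.42.0, limma 3.58.1 voom, other factors and filters, thinning, and libraries or genes left out. Over all genes, libraries sharing a replicate number had only weakly correlated deviations.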

Additional observations from a re-analysis of the deposited data

How the results depend on the processing

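All 13 mitochondrial log2 changes stayed negative in each of the 19 alternatives, which leave out the fit of shares scaled to the mitochondrial sum, with medians from -1.37 (without cryo replicate 1) to -0.79 (without cryo replicates 2 and 3). As no gene overlapped between the groups, leaving libraries out could hardly turn a sign, so those fits are no test of it. The other settings rescale or refit the same libraries. The number of the 13 genes called was less stable. It was 1 in the fit reported and 10 by DESeq2, beside 1.98% and 7.66% of all genes. It was 0 with RLE or upper-quartile factors, limma-voom, the replicate block, thinning, without vitellogenin, and without vitellogenin and pancreas genes, beside 0.26% to 2.04% of all genes. In those settings 9 to 11 had an unadjusted p under 0.05, beside 15.4% to 18.7% of all genes. Leaving out 1 library gave 0 to 11, beside 0.24% to 6.60% of all genes. The count of all genes called, 251, became 705 without the low-count filter, 1162 by DESeq2, 33 with the replicate block, 109 without cryo replicates 2 and 3, and 32 to 873 with 1 library left out. The cause of these moves was not tested. The highest of the last range was the fit without cryo replicate 1. Over all genes, deviations from the group means correlated at -0.0653, -0.133 and 0.0584 between libraries of the same replicate number. Between libraries of unlike number the correlations ran from -0.109 to 0.161. Such values cannot show whether libraries of the same number shared a step of preparation. With the replicate block the adjusted p of mt-atp8, vars2 and PPARGC1A came to 0.14, 0.0921 and 0.098.

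The log2 ratio of the summed share of counts, cryo over fresh, was -1.22 and became -0.66 without cryo replicates 2 and 3, and -1.50 to -0.96 with 1 library left out. Log2 shares near 0 turned sign with 1 library left out: MT-ND3 ranged from -0.10 (without cryo replicate 3) to 0.026 (without cryo replicate 2), mt-nd4l from -0.23 (without cryo replicate 3) to 0.036 (without cryo replicate 1), and MT-CYB from -0.064 (without cryo replicate 1) to 0.088 (without cryo replicate 3). MT-CYB was at 0.13 without cryo replicates 2 and 3 and at 0.0048 when fitted against the mitochondrial sum, a fit of shares in which 10 of 13 values were negative. Depth limits mt-atp8 most, at 37 counts in cryo replicate 2.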
